A study of Homo sapiens with 5 samples.

Results

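The genes described here are 9 genes of the epithelial-to-mesenchymal transition (EMT), namely the transcription factor genes SNAI1, SNAI2, ZEB1, ZEB2, TWIST1 and TWIST2, the intermediate filament gene VIM, and the cadherin genes CDH1 and CDH2. They were chosen by name and make up 9 of the 20098 protein-coding genes annotated on chromosomes 1 to 22 and X. All 9 were found in the annotation (GRCh37, which has the sequence of the hg19 build used by the authors). The data are chromatin immunoprecipitation and sequencing (ChIP-Seq) peak lists for Fra-1 (the AP-1 subunit encoded by FOSL1), MYC and E2F1. The cells were MDA-MB-231 LM2, a breast cancer line derived from MDA-MB-231 that metastasizes to the lung. There was 1 library per factor, each compared with the same input DNA. There is thus no replicate spread, no comparison between factors was tested, and the only test behind a peak is the q-value of the MACS2 peak caller (cutoff 0.01). Peak lists do not measure expression, so the cell type could not be checked against its markers.

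In EMT, epithelial cells give up their junctions and gain the shape and motility of mesenchymal cells. The SNAI and ZEB zinc finger proteins are repressors that bind the E-box CAGGTG and are best known for silencing CDH1, which encodes E-cadherin of the adherens junction. The TWIST proteins are basic helix-loop-helix factors that act in the same program, and VIM (vimentin) and CDH2 (N-cadherin) are classical markers of the mesenchymal state. MDA-MB-231 cells are a standard example of a mesenchymal-like breast cancer line. Fra-1 binds the AP-1 site, TGACTCA or on the opposite strand TGAGTCA, as a dimer with a JUN protein, MYC binds the E-box CACGTG with MAX, and E2F1 binds sites such as TTTCCCGC at promoters of cell cycle genes.

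The lists held 17320 Fra-1, 4867 MYC and 36933 E2F1 peaks, from 12931227, 23853621 and 18056168 tags after filtering, against 10758036 tags for the input. Fold enrichment compares the number of stacked fragments at a summit (the pileup) with the local input background. Because the libraries differ in depth, a fold enrichment is also given as a percentile, which is the share of peaks of the same factor and class with a lower value. The classes are peaks inside a promoter window of any annotated gene and peaks outside. A promoter window runs from 2 kb upstream to 2.5 kb downstream of any transcription start site (TSS), and flanks of 50 kb were added to each gene. Positions are relative to the TSS of the canonical transcript, and positive values are downstream. Reads were aligned to a masked genome, so binding in masked sequence may be missing from the lists, which was not checked.

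E2F1 was the factor most often called at these promoters. Its peaks lay in the windows of 5 genes (SNAI1, SNAI2, ZEB1, ZEB2 and VIM), against 61.3% of all protein-coding genes. Fra-1 promoter peaks were found at ZEB1 and VIM, that is 2 of 9 genes, against 13.2% of protein-coding genes. VIM alone had a MYC promoter peak, against 17.8% of protein-coding genes. The promoter windows of 4 genes (TWIST1, TWIST2, CDH1 and CDH2) held no peak of any factor, as did those of 37.8% of protein-coding genes. All 3 factors were called in the window of VIM, as at 4.67% of protein-coding genes. Each of these counts was within 1 gene of what the share among all protein-coding genes would give for 9 genes. With equal numbers of peaks per factor (the 4867 strongest), E2F1 was left at 2 genes, VIM and ZEB1, and Fra-1 at VIM.

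Most peaks counted in the genes and their flanks were not in the promoter windows of these genes. Within the genes and flanks there were 30 Fra-1, 2 MYC and 52 E2F1 peaks. With equal numbers of peaks per factor there were 13 Fra-1, 2 MYC and 3 E2F1 peaks, so the order of Fra-1 and E2F1 was turned round, and E2F1 peaks went from 13 to 2 at VIM and from 10 to 0 at SNAI1. Of the Fra-1 peaks, 2 lay in a promoter window of the 9 genes, 6 elsewhere in the gene and 22 in a flank. For E2F1 these numbers were 13, 5 and 34. Of the flank peaks, 6 for Fra-1 and 15 for E2F1 lay in promoter windows of other genes. For 2 of these Fra-1 and 9 of these E2F1 peaks, such a gene was protein-coding. In promoter windows of any gene lay 8 of the 30 Fra-1 peaks (26.4% of the list) and 28 of the 52 E2F1 peaks (68.0%). For MYC it was 1 of 2 (85.7%). A Fra-1 peak in the gene or flanks was found at 8 of the 9 genes (55.8% of protein-coding genes), an E2F1 peak at all 9 (83.0%) and a MYC peak at 2 (39.5%). SNAI2 was the gene without a Fra-1 peak. At 6 genes (all but SNAI2, ZEB1 and VIM) Fra-1 was found in the gene or flanks but in no promoter window, as at 42.6% of protein-coding genes. Peaks within the annotated gene itself were found at 5 genes for Fra-1 (24.2% of protein-coding genes), 1 for MYC (16.0%) and 8 for E2F1 (63.2%). These counts depend on gene length, since the windows spanned 104 kb for SNAI2 and 345 kb for CDH2.

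**Figure D1:**
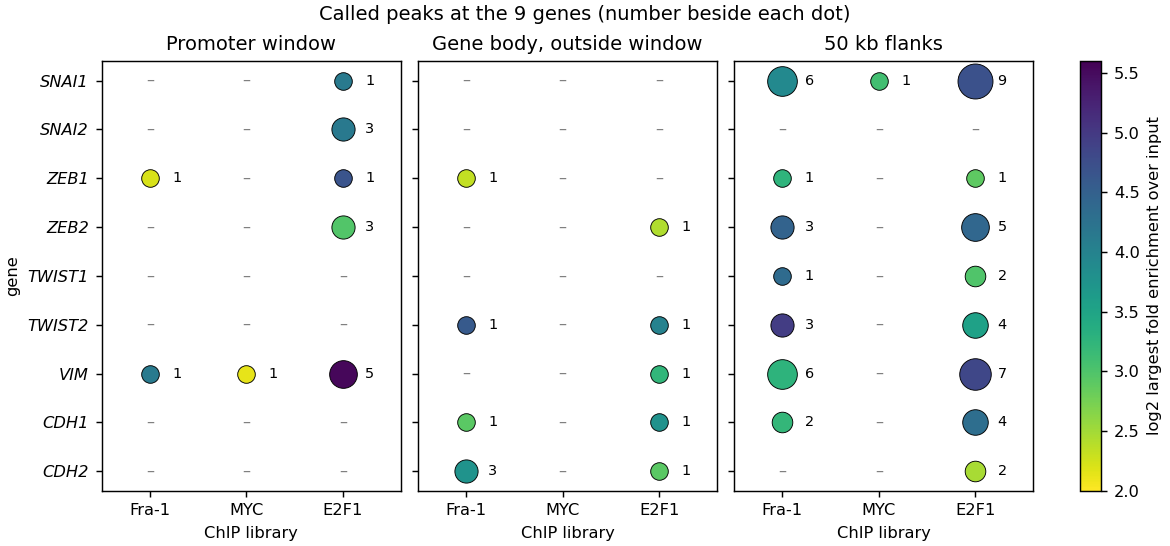
Called peaks at the 9 genes (rows) by ChIP library (columns), in promoter windows, in the rest of the gene and in the 50 kb flanks. Numbers are peak counts, dot area grows with the count, color is log2 of the largest fold enrichment, and a dash marks no peak; E2F1 fills 5 of 9 promoter rows, Fra-1 2 and MYC 1.

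SNAI2, which encodes Slug, is a minus-strand gene of chromosome 8 (49830157 to 49834299) and showed E2F1 peaks only. Their fold enrichments were 17.7 at −13 bp, 6.92 at −444 bp and 5.66 at 697 bp. The strongest had a pileup of 36 and a −log10 q of 38.8, so its value was next to that of SNAI1 (17.5). No other peak of any factor was called within 50 kb of the gene. The nearest Fra-1 peak was 129.8 kb from the promoter window, with a fold enrichment of 22.2, and the nearest MYC peak was 958 kb away.

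SNAI1, which encodes Snail, lies on the plus strand of chromosome 20 from 48599517 to 48605423. Its single E2F1 promoter peak (48599490 to 48599752) had the summit 114 bp downstream of the TSS in an exon, with a pileup of 33, a fold enrichment of 17.5 and a −log10 q of 35.8. Among the 12321 protein-coding genes with an E2F1 promoter peak, 36.8% had a lower best value. Thus the E2F1 peak at SNAI1 was below the median of 22.02. No Fra-1 or MYC peak lay in the window, and the nearest Fra-1 peak was 4.12 kb outside it.

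The flanks of SNAI1 held 6 Fra-1 peaks in 106 kb. This is 5.67 per 100 kb, a higher density than at 99.2% of protein-coding genes, whose median was 0.539. The 10 E2F1 peaks gave 9.44 per 100 kb, higher than at 90.8% of protein-coding genes, but the strongest of them, with a fold enrichment of 26.1 at −46.5 kb, was in the promoter window of the neighbor RNF114. Most of these peaks were far from the gene. With flanks of 25 kb, 2 Fra-1 and 2 E2F1 peaks were left, each 3.58 per 100 kb, more than at 94.4% of protein-coding genes for Fra-1 and at 63.6% for E2F1. The Fra-1 peaks fell into an upstream and a downstream group. Upstream, summits at −34.0 and −31.7 kb, both within RNF114, had fold enrichments of 7.82 and 13.9, and those at −14.0 and −6.19 kb had 9.19 and 7.93. Downstream, summits at 45.03 and 47.2 kb had fold enrichments of 12.9 and 15.0. E2F1 peaks overlapped 5 of these 6 Fra-1 peaks, all but the one at −14.0 kb. Background differed along the locus. At −34.0 kb the Fra-1 pileup was 61 over a background of 6.93, whereas at 45.03 kb a pileup of 19 over 0.547 gave the larger ratio, and the median background of Fra-1 peaks was 1.89. Whether this background affects the ranking was not tested.

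The downstream group held the only MYC peak near SNAI1 and an interval shared by Fra-1, MYC and E2F1 peaks, from 48644458 to 48644563. MYC had a fold enrichment of 8.47 and a −log10 q of 8.96 there, which is the 84.9th percentile of MYC peaks outside promoters. E2F1 had a fold enrichment of 20.4 (percentile 96.4) and Fra-1 of 12.9 (percentile 81.3), and their summits were at the same base. The MYC summit was 96 bp away. The stretch shown is wider than the shared interval and carries a match for both Fra-1 and MYC, but each match lies outside that interval. The E-box lies in the MYC but not the Fra-1 peak, and the AP-1 site in the Fra-1 but not the MYC peak. Capitals mark the E-box CACGTG, 30 bp from the MYC summit, and the AP-1 site TGAGTCA, 22 bp from the Fra-1 summit (plus strand, GRCh37).
SNAI1 downstream region, chr20:48644407-48644584: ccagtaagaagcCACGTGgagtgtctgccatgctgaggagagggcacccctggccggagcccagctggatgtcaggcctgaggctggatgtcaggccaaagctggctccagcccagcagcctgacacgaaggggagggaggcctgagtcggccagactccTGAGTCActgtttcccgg

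ZEB1 lies on the plus strand of chromosome 10 from 31607424 to 31818742. Its E2F1 promoter peak, 1204 bp wide with the summit at −202 bp, had a pileup of 82, a fold enrichment of 25.4 and a −log10 q of 91.7. This was the strongest E2F1 promoter peak among the 6 transcription factor genes, and 59.1% of protein-coding genes with such a peak had a lower best value. The window is shared with the antisense gene ZEB1-AS1, so the peak cannot be given to either gene. The same holds for 12 of the 13 E2F1 and both Fra-1 promoter peaks of the 9 genes, all but that of SNAI1, since windows of VIM-AS1, ZEB2-AS1 or other non-coding genes overlap them. The Fra-1 promoter peak at −839 bp was weak, with a pileup of 13, a fold enrichment of 4.65 and a −log10 q of 4.27, and it ranked 16558 of 17320 by q. No AP-1 site lay within 50 bp of its summit, and the peak was lost with a −log10 q or a fold enrichment of at least 5. A stronger Fra-1 peak was just outside the window at −3.56 kb, with a fold enrichment of 9.56 and a −log10 q of 30.8. An E2F1 peak with a fold enrichment of 7.42 overlapped it, the summits were 42 bp apart, and an AP-1 site was 15 bp from the Fra-1 summit. The third Fra-1 peak, in an intron at 108 kb, had a fold enrichment of 5.03 and an AP-1 site 3 bp from its summit. The AP-1 sites of the stronger and the weaker of these peaks are shown, with AP-1 sites in capitals (plus strand, GRCh37).
ZEB1 upstream, chr10:31604590-31604619: atgtttccttccTGACTCAatgactgcaga
ZEB1 intron, chr10:31716382-31716411: caaattatattaTGACTCActctctttctc

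ZEB2 is a minus-strand gene of chromosome 2 (145121931 to 145278624). Its 3 E2F1 promoter peaks were weak, with fold enrichments of 7.69 at 38 bp, 7.84 at 2440 bp and 6.58 at 2804 bp. Only 8.51% of protein-coding genes with an E2F1 promoter peak had a lower best value. No Fra-1 peak lay in its windows, although they covered 47.1 kb because the gene has 46 annotated TSS. Past the 3′ end of ZEB2, however, a Fra-1 peak at 162 kb reached a fold enrichment of 22.1 (pileup 40, −log10 q 47.4, 96.8th percentile of peaks outside promoters). The overlapping E2F1 peak had 7.39, at the 55.8th percentile. An AP-1 site was 1 bp from the Fra-1 summit. The other Fra-1 peaks had fold enrichments of 4.83 and 5.88, the latter in a promoter window of the neighbor GTDC1 and also 1 bp from an AP-1 site. An E2F1 peak in an exon of ZEB2 at 130.3 kb had 5.40. The 4 E2F1 peaks in GTDC1 promoter windows ranged from 3.91 to 21.4. The AP-1 sites at the same distance from a strong and a weak summit were as follows (plus strand, GRCh37).
ZEB2 downstream, fold enrichment 22.1, chr2:145115678-145115707: atttcacgacaaTGACTCAgaaagcagtgc
GTDC1 window, fold enrichment 5.88, chr2:145078284-145078313: tgggcaaggggcTGAGTCAcggcattcttt

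TWIST1, on the minus strand of chromosome 7, had no peak in its promoter or gene body. The annotation gives it a span of 96.6 kb, from 19060614 to 19157259, because of a long transcript, whereas the canonical transcript covers 2.17 kb. No peak of any factor lay within 50 kb of the canonical transcript. The nearest E2F1 peak was 104.6 kb from the promoter window, with a fold enrichment of 4.73, and was the only E2F1 peak of all 52 with an E2F motif (TTTCCCGC, 28 bp from the summit). The nearest Fra-1 peak, 136 kb from the window and inside the neighbor HDAC9, was strong, with a pileup of 60, a fold enrichment of 20.5 and a −log10 q of 61.3 (95.8th percentile). The E2F1 peak with its summit 6 bp away had a fold enrichment of 7.96. A pair of AP-1 sites flanked the Fra-1 summit at 24 and 35 bp and is shown with the sites in capitals (plus strand, GRCh37).
HDAC9 site 1, chr7:19017862-19017891: tttggagtgagaTGACTCAtttcatactaa
HDAC9 site 2, chr7:19017921-19017950: ccaactcatatcTGACTCAtttaccactag

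TWIST2, on the plus strand of chromosome 2 from 239756673 to 239832230, had an empty promoter and the strongest Fra-1 peaks of the 9 genes. All 4 Fra-1 peaks were at least 13.5 kb from the promoter window, and each overlapped an E2F1 peak. In an intron at 16.3 kb, Fra-1 had a pileup of 47 and a fold enrichment of 24.2 (97.8th percentile) and E2F1 a fold enrichment of 15.99 (92.9th percentile). At 79.7 kb, past the gene, the fold enrichments were 15.7 and 9.30. At 114 kb, Fra-1 had a pileup of 64, a fold enrichment of 31.1 and a −log10 q of 83.0, the largest of the 30 Fra-1 peaks, and ranked 228 of 17320 by q. E2F1 had a fold enrichment of 11.7 there. The remaining pair, at 115 kb, was weak, at 6.74 for Fra-1 and 6.16 for E2F1. The Fra-1 fold enrichment was the larger in all 4 pairs, but by percentile Fra-1 was the higher in 3, and in the pair at 115 kb E2F1 was (percentile 38.5 against 30.8). AP-1 sites lay 6 bp from the Fra-1 summit at 16.3 kb and 41 bp from that at 79.7 kb. At the strongest peak, no AP-1 site lay within 50 bp of the Fra-1 summit, but one was 6 bp from the E2F1 summit, which was 61 bp away. These sites are shown in the same order (AP-1 sites in capitals, plus strand, GRCh37).
TWIST2 intron, chr2:239773041-239773070: tgggagcaggagTGACTCAgagccgtggct
TWIST2 downstream, chr2:239836474-239836503: ctcatcactcgcTGACTCAgtgacccagga
TWIST2 strongest peak, chr2:239870254-239870283: accttcccaacaTGAGTCAgagatagaagg

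**Figure D2:**
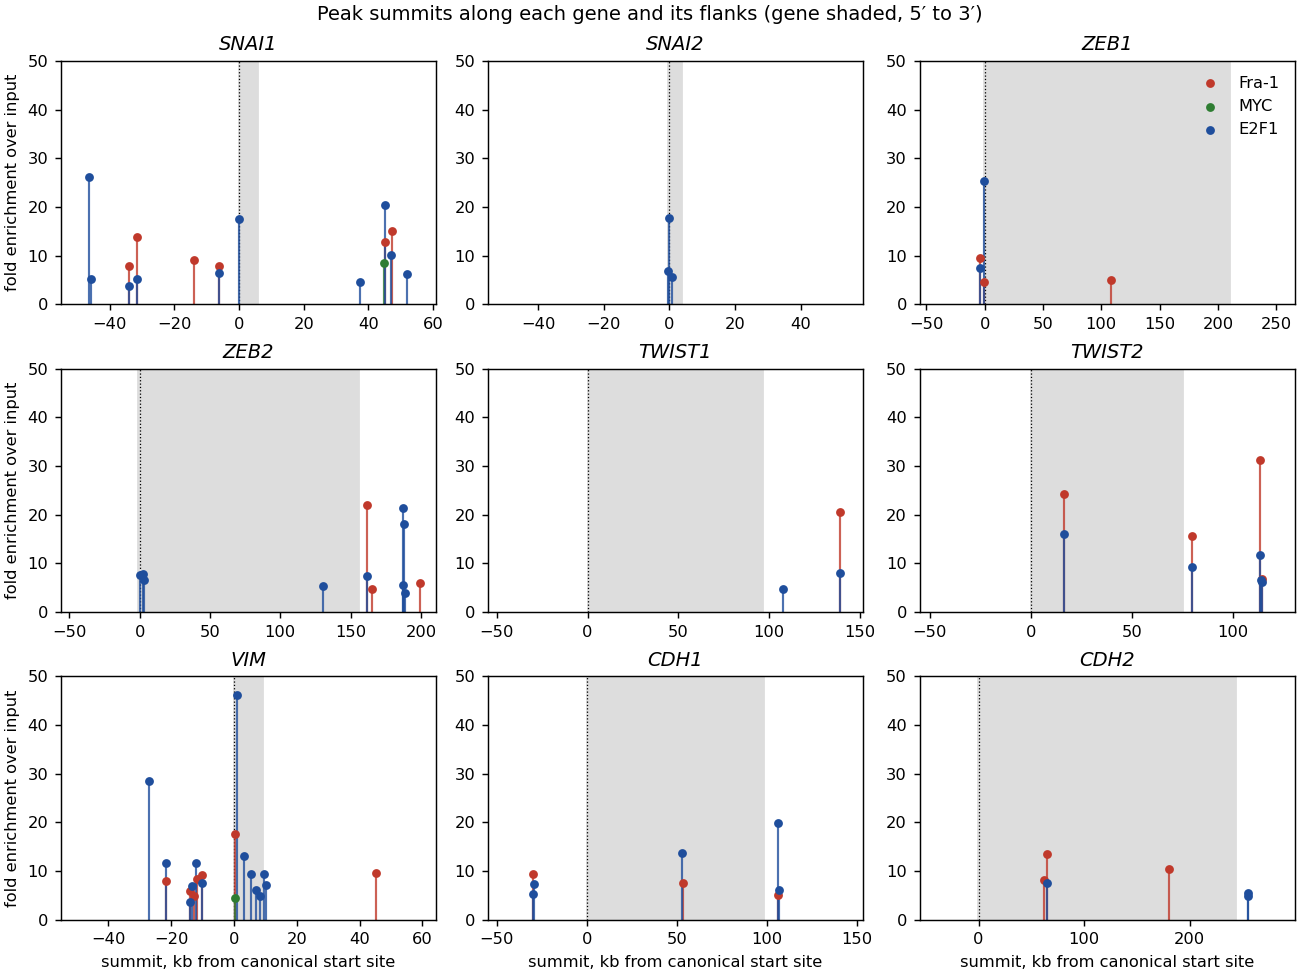
Fold enrichment over input (vertical axis) of every peak summit against its distance in kb from the canonical TSS (horizontal axis, dotted line at 0), with the annotated gene shaded and all panels drawn 5′ to 3′. The strong Fra-1 peaks of TWIST2, TWIST1 and ZEB2 (20.5 to 31.1) stand away from the start sites, where SNAI1, SNAI2, ZEB1, ZEB2 and VIM have E2F1 peaks.

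VIM, on the plus strand of chromosome 10 from 17270240 to 17279592, had the most peaks of the 9 genes, with 13 E2F1, 7 Fra-1 and 1 MYC peak. Its E2F1 promoter peak (17268817 to 17272898) was 4082 bp wide, the 21st widest of 36901 E2F1 peaks on these chromosomes. It had a pileup of 132, a fold enrichment of 46.2 and a −log10 q of 185 (rank 155 of 36933). Its summit lay at 1069 bp, which is 19 bp downstream of another annotated TSS of VIM. Of the protein-coding genes with an E2F1 promoter peak, 92.7% had a lower best value. Further E2F1 peaks followed along the gene, with fold enrichments of 13.2, 9.42, 6.16, 4.85 and 9.41 in the direction of transcription. In all, E2F1 peaks covered 87.6% of VIM. Only 4 of the 2364 protein-coding genes between 5 and 10 kb long, VIM included, were covered to this extent, and the median was 0.594%. The background under these peaks was high, at 5.00, 5.90, 3.87 and 3.95 for the summits at 3.31, 5.31, 7.06 and 8.46 kb, against a median of 0.996 for E2F1 peaks, and its part in the coverage was not tested. The E2F motif was found at none of these summits.

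Fra-1 and MYC differed in strength at VIM. The Fra-1 promoter peak (17270290 to 17270762) had its summit at 272 bp, a pileup of 69, a fold enrichment of 17.5 and a −log10 q of 63.1. It ranked 215 among the 2662 protein-coding genes with a Fra-1 promoter peak. An AP-1 site 16 bp from the summit is shown in capitals (plus strand, GRCh37).
VIM promoter, chr10:17270519-17270537: gcgcggTGAGTCAccgccg
The MYC peak at 440 bp (17270610 to 17270752) was at the limit of detection, with a pileup of 9, a fold enrichment of 4.403 and a −log10 q of 2.03, and it ranked 4866 of 4867 by q. No CACGTG lay within 50 bp of its summit. The call of all 3 factors at VIM therefore rests on this MYC peak, and it was absent with a −log10 q of at least 5 or a fold enrichment of at least 5.

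Upstream of VIM, 4 more Fra-1 peaks lay between −14.1 and −10.2 kb in promoter windows of the antisense gene VIM-AS1, with fold enrichments of 5.85, 4.86, 8.46 and 9.12. E2F1 peaks overlapped all 4. Including peaks at −21.7 kb (7.98) and 45.4 kb (9.66), VIM had 7 Fra-1 peaks in 109 kb. This was 6.40 per 100 kb, more than at 99.6% of protein-coding genes. The 13 E2F1 peaks gave 11.9 per 100 kb, more than at 94.9%, and the one at −26.9 kb (fold enrichment 28.4) was in the promoter window of the neighbor TRDMT1. As at SNAI1, the background was high in places. It was 5.97 at the Fra-1 peak at −11.8 kb and 5.96 at the E2F1 peak at −11.9 kb. Over the 9 genes, the background was 3 or more at 7 of 30 Fra-1 peaks and 11 of 52 E2F1 peaks, against 17.1% and 8.02% of the full lists. Its part in these values was not tested.

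**Figure D3:**
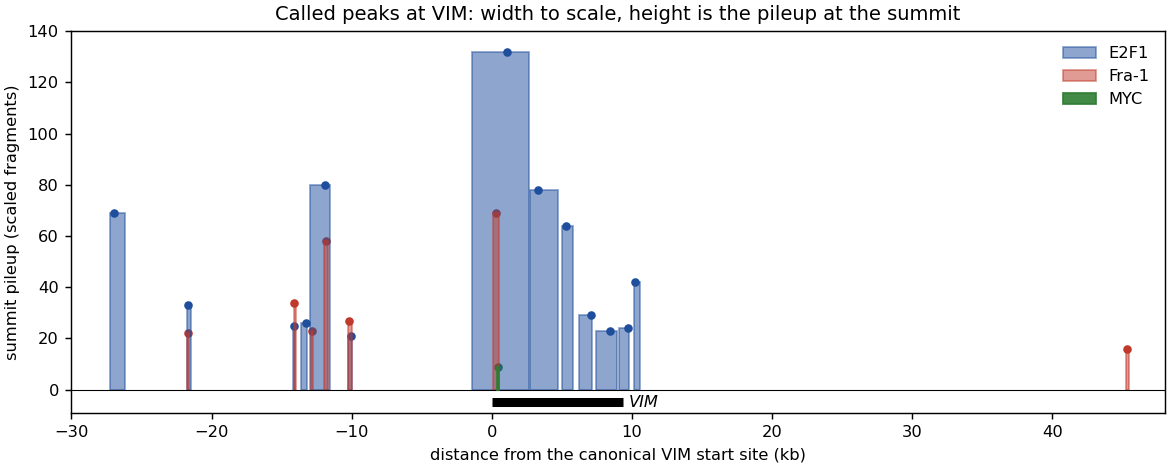
Peaks at VIM against the distance from its canonical TSS in kb, with bar width the peak width and bar height the pileup at the summit in scaled fragments (points mark summits, the black bar is the gene). E2F1 peaks run along the whole gene from a pileup of 132 at the promoter, Fra-1 reaches 69 there, and MYC reaches 9.

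CDH1, on the plus strand of chromosome 16 from 68771195 to 68869440, had no peak in promoter windows that covered 32.4 kb at 10 annotated TSS. The nearest Fra-1 and E2F1 peaks were 9.22 kb from a window, and the nearest MYC peak was 307 kb away.

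Fra-1 and E2F1 were nevertheless called together at 3 places around CDH1. In an intron at 53.1 kb, E2F1 had a pileup of 26 and a fold enrichment of 13.6 (88.8th percentile) and Fra-1 a pileup of 14 and 7.56 (41.4th percentile). No AP-1 site lay within 50 bp of either summit. At −29.7 kb, inside the neighboring P-cadherin gene CDH3, Fra-1 had a fold enrichment of 9.33 with an AP-1 site at 17 bp, and E2F1 had 5.27. At 106 kb the peaks, with 19.9 for E2F1 and 5.08 for Fra-1, were in the promoter window of TANGO6. Thus the intron was the only place inside CDH1 where any factor was called, and E2F1 was there the stronger by percentile.

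CDH2, a minus-strand gene of chromosome 18 (25512843 to 25757910), also had empty promoter windows (32.5 kb, 11 annotated TSS). Fra-1 peaks lay in introns at 61.8 kb (fold enrichment 8.10), 65.0 kb (13.5) and 180.2 kb (10.4). E2F1 was called at that of 65.0 kb, with a fold enrichment of 7.60 and the summit 7 bp from that of Fra-1. The Fra-1 peak at 61.8 kb had an AP-1 site 4 bp from its summit, and the others had none within 50 bp. The other E2F1 peaks, 10.9 and 11.3 kb beyond the 3′ end, had fold enrichments of 4.95 and 5.56. Per 100 kb, CDH2 had 0.869 Fra-1 and 0.869 E2F1 peaks, against medians of 0.539 and 2.24 over protein-coding genes. Thus both cadherins had an empty promoter, as did 37.8% of protein-coding genes, and Fra-1 in introns. The same held for TWIST2 (fold enrichment 24.2). The Fra-1 fold enrichments in introns were 8.10 to 13.5 at CDH2 and 7.56 at the single such peak of CDH1.

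Next, the factors were compared at the peaks of all 9 genes. Of 30 Fra-1 peaks, 23 overlapped an E2F1 peak, against 61.5% of the Fra-1 list. Outside promoter windows these were 16 of 22 (56.6% of the list) and inside 7 of 8 (75.1%). Of 52 E2F1 peaks, 22 overlapped a Fra-1 peak (28.3% of the list). Both MYC peaks overlapped an E2F1 peak, as did 96.1% of the MYC list, and a Fra-1 peak, as did 21.4%. In the 16 pairs outside promoters the fold enrichment of Fra-1 was the larger in 13, as in 72.4% of the 7256 such pairs in the lists, and the summits were a median of 21 bp apart (29 bp in the lists). In the 7 pairs inside promoters Fra-1 was the larger in 2 (45.7% of 3444 pairs), with summits a median of 138 bp apart (44 bp in the lists). Thus outside promoters the pairs had values near those of the full lists. The 7 promoter pairs were few, most were at the VIM locus, and the same E2F1 peak gave the distances of 928 and 71 bp. Whether these 7 pairs differ from the lists was not tested. The largest distances in promoters were 797 bp at VIM, 637 bp at ZEB1 and 928 bp in VIM-AS1 windows.

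**Figure D4:**
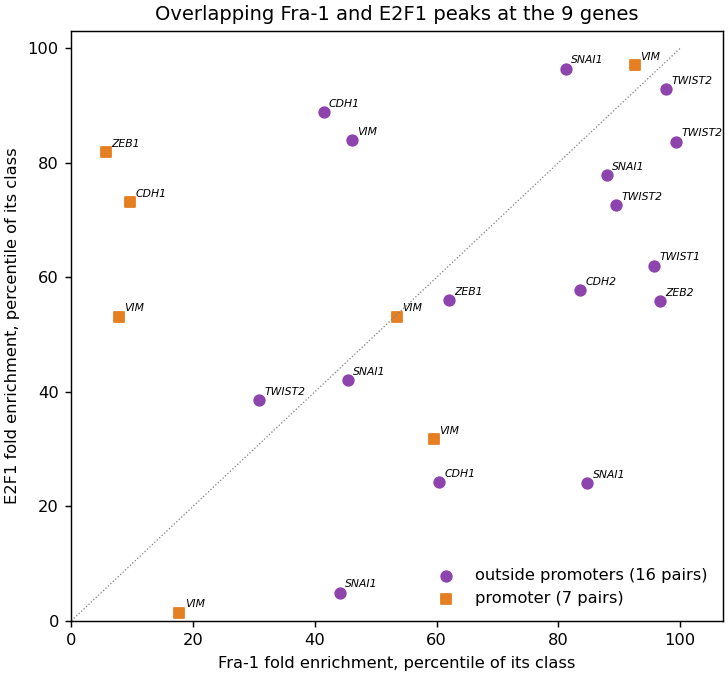
Each point is 1 of the 23 pairs of overlapping Fra-1 and E2F1 peaks, with the percentile of its fold enrichment among Fra-1 peaks (horizontal) and E2F1 peaks (vertical) of the same class. The dotted line marks equal percentiles; TWIST2, TWIST1 and ZEB2 pairs outside promoters lie at the right, with Fra-1 percentiles from 89.5 to 99.3 except for 1 TWIST2 pair at 30.8, and ZEB1 and CDH1 pairs in promoter windows lie at the upper left.

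AP-1 sites lay within 50 bp of the summit for 18 of 30 Fra-1 peaks, against 53.3% of the Fra-1 list. They also lay at 12 of 52 E2F1 summits (12.2% of the list). Of these 12, 10 were among the 22 E2F1 peaks that overlapped a Fra-1 peak (36.1% of such peaks in the list) and 2 were among the other 30 (2.70%). Apart from the TWIST1 flank, no E2F1 summit at the 9 genes had an E2F motif, and the motif is rare in the list too (1.68%). Of the 2 MYC summits, the one downstream of SNAI1 had the E-box CACGTG, which was found at 16.8% of the MYC list. Thus at these genes, as in the lists, E2F1 summits carried the Fra-1 motif more often than their own.

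Other genes of the program were then examined for promoter peaks. The shares of all protein-coding genes were 61.3% for E2F1, 13.2% for Fra-1 and 17.8% for MYC, and 37.8% had no peak. Among 12 other transcription factors of EMT, E2F1 was called at 8, MYC at 2 and Fra-1 at 0. Among 17 other classical cadherins, E2F1 was called at 3, Fra-1 at 1 and MYC at 0, and 14 had no peak. The cadherin with a Fra-1 peak was CDH5, the endothelial cadherin (fold enrichment 9.33). The 9 catenins had E2F1 at 7, Fra-1 at 3 and MYC at 0. The Fra-1 fold enrichments were 17.2 at ARVCF, 6.66 at CTNNA1 and 5.85 at CTNNB1, the gene of β-catenin.

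Fra-1 promoter peaks were found at genes of both epithelial and mesenchymal type. Of all protein-coding genes, 13.2% had a Fra-1, 61.3% an E2F1 and 17.8% a MYC promoter peak. Of 18 mesenchymal effector genes, 7 had a Fra-1, 11 an E2F1 and 1 a MYC peak. The largest Fra-1 values were 17.3 at TGFBI, a matrix protein gene induced by TGF-β, 14.7 at the receptor kinase gene AXL and 13.4 at FN1 (fibronectin), close to the 17.5 of VIM. Of 19 epithelial junction and keratin genes, 6 had a Fra-1, 15 an E2F1 and 1 a MYC peak. The largest Fra-1 values were 19.7 at PKP3, a desmosome gene, and 16.4 at the adjoining keratin genes KRT8 and KRT18, which share the peak. In both lists the gene with all 3 factors (AXL and PKP3) had a MYC peak stronger than that of VIM, with fold enrichments of 7.97 and 5.67.

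Of 14 epithelial regulators, 5 had an E2F1, 4 a MYC and 1 a Fra-1 peak (KLF5, 5.11), and 9 had none (37.8% of protein-coding genes). This list includes microRNA genes, which the protein-coding share leaves out, so the counts and the share are not fully alike. The microRNA genes MIR200C and MIR141, whose products target ZEB1 and ZEB2, were among those with MYC and E2F1. However, their windows overlap and hold the same MYC peak (fold enrichment 6.54), and their E2F1 value was also the same (23.7). They are thus not independent entries of the count. Finally, all 9 co-repressors through which SNAI and ZEB proteins act had an E2F1 peak (61.3% of protein-coding genes). Of the 9, 4 had a MYC peak (17.8%) and 2 a Fra-1 peak (13.2%). These were AJUBA (13.4) and RCOR1 (11.3), and RCOR1 had all 3 factors. Of the 98 genes in these lists, microRNA genes included, 40 had no promoter peak, like TWIST1, TWIST2, CDH1 and CDH2. E2F1 alone was found at 29, like SNAI1, SNAI2 and ZEB2, and Fra-1 with E2F1 at 17, like ZEB1. All 3 factors were found at 3, like VIM. Among protein-coding genes, 37.8% had no promoter peak and 4.67% had all 3 factors. E2F1 alone was found at 35.8% of them and Fra-1 with E2F1 but without MYC at 7.67%.

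**Figure D5:**
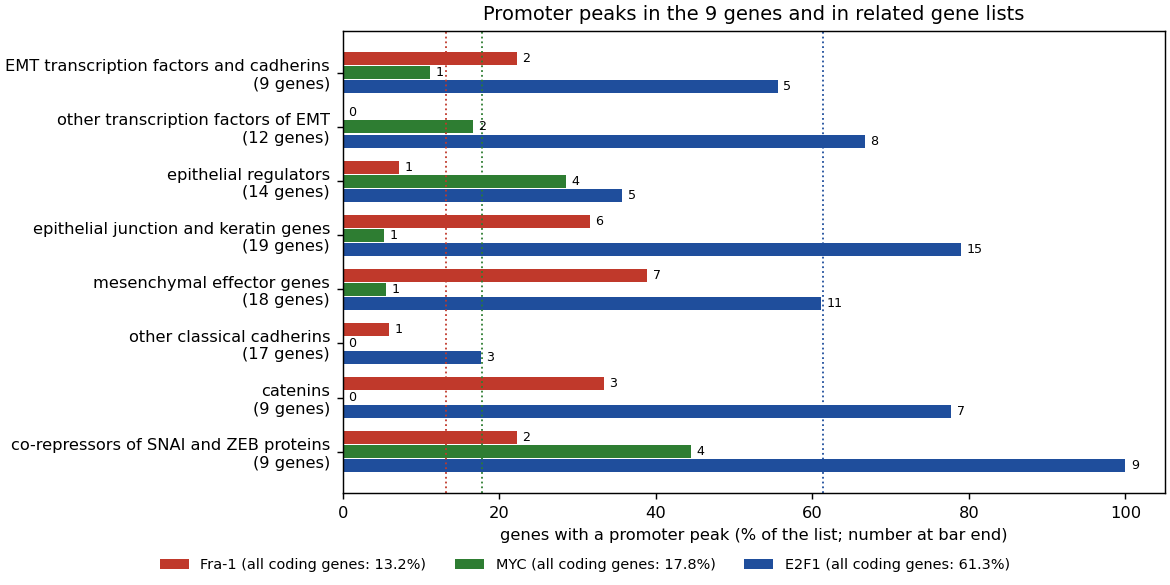
Share of genes with a promoter peak (horizontal axis, % of each list, number of genes at the bar end) for the 9 genes and the 7 related lists, by factor, with dotted lines at the share of all protein-coding genes (13.2% Fra-1, 17.8% MYC, 61.3% E2F1). Other cadherins have the lowest E2F1 share (3 of 17) and the co-repressors the highest (9 of 9).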

How the data were processed

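Peak lists of 3 ChIP-Seq libraries (Fra-1, MYC and E2F1) were used, and for the EZH2 library no list was used here. Before deposit, the authors used Trimmomatic for trimming, Bowtie for alignment to masked hg19 and Picard for duplicates. Peaks of each factor come from MACS2 (version 2.0.10.20120913 per the file headers, q cutoff 0.01), with 1 input library as control. The deposited signal is the summit pileup, scaled by MACS2 towards the smaller library. The deposited fold enrichment is the ratio of the pileup to the local background, with a pseudocount of 1, and the −log10 p- and q-values were also deposited. The background was recovered from pileup and fold enrichment. These files give peaks and no read counts, so values carry no interval.

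Peaks were assigned with GENCODE 44 mapped to GRCh37 (overlap of at least 1 bp). A peak in a promoter window was not counted again in the gene body, nor a gene body peak in the flank. Motifs were searched on both strands of GRCh37 within 50 bp of summits, and the E2F motif was TTTCCCGC, TTTCGCGC, TTTGCCGC or TTTGGCGC. Of the listed genes, 1 (MIR205) was not matched in the annotation. The genes named beside the 9 are those with promoter peaks of all 3 factors and the 3 with the largest Fra-1 promoter fold enrichment in each list, and neighbors whose promoter windows hold a flank peak. HDAC9, CDH3, MIR200C and MIR141 were named after their values were seen. The genes and lists were chosen with earlier results of these data known. No test was made, since each factor had 1 library. Alternatives were other promoter windows, start sites, flanks, peak thresholds, overlap rules and motif windows. Routines were tested on simulated data. Python 3.11.15, numpy 2.4.6, pandas 2.3.3 and matplotlib 3.10.9 were used.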

Additional observations from a re-analysis of the deposited data

How the results depend on the processing

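With 1 library per factor the spread between libraries is unknown. Under the other settings listed above, 48 values were classed as kept and 37 as moved. These classes do not measure closeness. Fra-1 peaks in genes and flanks were classed as kept at 20 (flanks of 25 kb) and 40 (100 kb), against 30. The cause of the changes was not tested. No paired analysis was possible because each factor had 1 library and no test was made.

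The shares of protein-coding genes with a Fra-1, MYC and E2F1 promoter peak were 9.85%, 17.0% and 59.7% with windows of 1 kb to either side, 7.20%, 15.8% and 57.3% with the canonical TSS, and 10.195%, 16.9% and 59.0% with TSS of coding transcripts. They were 12.02%, 12.7% and 60.4% with a −log10 q of at least 5, and 12.5%, 16.8% and 60.4% with a fold enrichment of at least 5. With equal numbers of peaks they were 3.43% for Fra-1 and 25.7% for E2F1. Of the 9 genes, Fra-1 was then left at 1 and E2F1 at 2, and with either threshold Fra-1 was left at 1 and MYC at 0. Of the other listed genes, Fra-1 was at 11 with the canonical TSS, MYC at 7 with the q threshold, and Fra-1 at 9 and E2F1 at 17 with equal numbers. Peaks in genes and flanks were 1 for MYC and 33 for E2F1 with flanks of 25 kb, 1 for MYC with either threshold, and 13 for Fra-1 and 3 for E2F1 with equal numbers. With a reciprocal overlap of 50%, E2F1 overlapped 15 Fra-1 peaks and 1 MYC peak, and with summits within 250 bp 1 MYC peak. An E2F motif lay within 100 bp of 2 E2F1 summits. The span of the canonical transcript, chosen after seeing the data, left 28 Fra-1, 2 MYC and 46 E2F1 peaks.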
